A study of Vitis vinifera with 60 samples.

Results

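The 100 most constant genes of the ripening grape berry were taken from a table of transcript levels in 5 cultivars and 4 stages. A gene was eligible if its row carried a single locus tag and never fell below 20 FPKM, which 3477 of the 29287 rows did. FPKM counts the fragments of a gene per length of its transcript and per fragments sequenced, so levels can be compared between genes. Eligible genes were ranked by their coefficient of variation, the SD of FPKM over the 20 columns divided by the mean. The 100 with the lowest coefficient, called the members here, are described as candidate reference genes. They were chosen on these very values, so their constancy is a description, with no test.

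The tissue was berry pericarp, entire berries with the seeds removed, of the red-skinned Vitis vinifera cultivars Sangiovese, Barbera, Negroamaro, Refosco and Primitivo. All vines grew in one experimental vineyard and were sampled in one season, with no treatment. The stages were pea-sized berries, berries beginning to touch, soft berries and berries ripe for harvest, and each of the 20 combinations has 3 biological replicates by its labels, 60 samples in all. The deposited table holds the authors' mean FPKM for each combination, so neither the spread between replicates nor the read depth is known here, and every SD below is over the 5 cultivars of a stage unless stated otherwise.

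A reference gene is a gene whose transcript level is taken as fixed, so that the level of other genes can be stated relative to it, as in quantitative PCR. Such genes are usually sought among those that all living cells need, for instance for the cytoskeleton, protein synthesis, protein breakdown or membrane traffic. The grape berry is a demanding case. It first grows as a green, acid fruit, and at softening it begins to store sugar, lose acid and, in red cultivars, form anthocyanins in the skin, while much of its transcriptome changes. Because FPKM states each gene as part of a whole, a large gain in a few very abundant transcripts lowers the value of every other gene. In ground tissue, fewer cells that express a gene and less of its RNA per cell cannot be told apart.

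None of the table's locus tags matched the gene name table used here, and the deposited rows carry tags alone. Members are therefore given by tag, without a function, and the seed, pericarp and green tissue markers that would check the label of the tissue could not be looked up. The number that follows VIT_ is read as the chromosome, and 00 marks sequence not placed on one. By that field, 10 members were unplaced and the other 90 were spread over every chromosome except 15, which held 3.28% of the eligible genes. Chromosome 8 held the most members, 12, and 7.45% of the eligible genes. Only VIT_08s0007g01780 and VIT_08s0007g01790 lay within 5 tags of another member, and Pearson's r between them over the 20 columns was 0.26.

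Column totals differed between stages, and soft berries had the highest, without overlap. Totals lay between 787405 and 819979 FPKM in pea-sized berries, 851925 and 940679 in touching berries, 971982 and 1096120 in soft berries, and 803938 and 925392 in harvested berries. The harvest columns labelled Negroamaro and Primitivo went against their labels. Of 508 genes at least 1 log2 unit apart between these cultivars in the same direction at each of the 3 earlier stages, 57 (11.2%) kept that direction at harvest, against 67.0% to 99.6% in the other 39 combinations of a cultivar pair and a stage. Stage means and the coefficient of variation do not depend on which of these columns belongs to which cultivar. Results by cultivar do, as do calls of a fit with a cultivar term and the spread over cultivars of a step to harvest. Cultivar means, their ranges and shares of variance are given with and without harvested berries, and the test between cultivars with and without these columns. Choices, fits and reference levels that leave out a cultivar keep every stage.

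VIT_13s0073g00610 had the lowest coefficient of variation, 4.97%, at 59.6 ± 2.96 FPKM (SD over 20 columns). In pea-sized berries it had 59.8, 64.0, 59.2, 56.1 and 58.7 FPKM in Sangiovese, Barbera, Negroamaro, Refosco and Primitivo. In the same cultivar order it had 58.4, 61.8, 61.1, 57.8 and 62.2 FPKM in touching berries, and 53.4, 60.6, 64.3, 57.7 and 60.3 FPKM in soft berries. In harvested berries it had 56.1, 59.6, 64.5, 56.0 and 60.7 FPKM, in the cultivar order of the labels. The ranges of the 4 stages overlapped, and the highest value, in the harvest column labelled Negroamaro, was 1.21 times the lowest.

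VIT_09s0002g02470 was second, with a coefficient of variation of 5.89% around 35.1 FPKM. With cultivars in the same order, it had 36.2, 33.2, 35.8, 33.5 and 35.4 FPKM in pea-sized berries and 38.7, 35.2, 35.3, 35.6 and 39.6 FPKM in touching berries. It had 33.6, 32.0, 34.6, 33.9 and 36.0 FPKM in soft berries and 34.4, 34.6, 36.8, 37.2 and 30.9 FPKM in harvested berries. The highest and the lowest value both stood in columns labelled Primitivo, at the touching stage and at harvest.

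VIT_04s0044g00580 came next, with a coefficient of variation of 6.44%, and was by far the most abundant member at 1301 ± 83.8 FPKM (SD over 20 columns). In the same order, its values were 1262, 1324, 1344, 1164 and 1285 FPKM in pea-sized berries and 1191, 1302, 1328, 1248 and 1275 FPKM in touching berries. They were 1240, 1483, 1335, 1193 and 1326 FPKM in soft berries and 1416, 1357, 1448, 1239 and 1254 FPKM in harvested berries. All stages overlapped, and Refosco held the lowest column in pea-sized, soft and harvested berries.

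**Figure D1:**
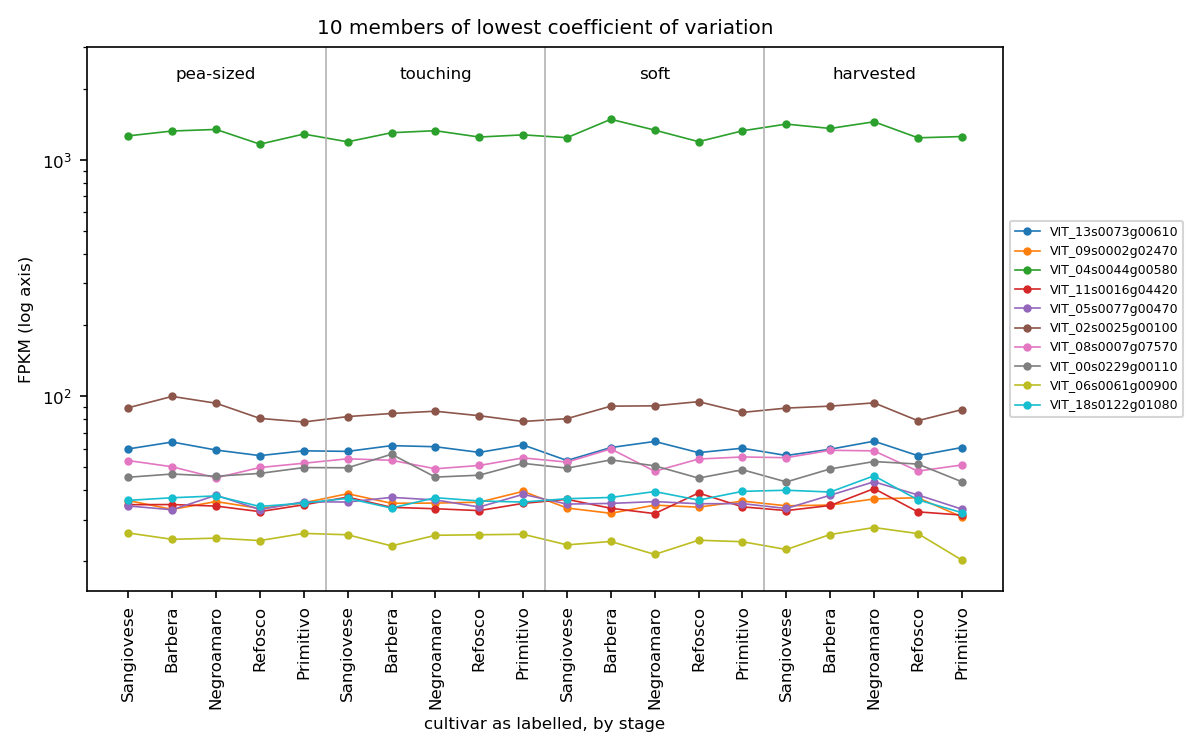
FPKM (log axis) of the 10 members of lowest coefficient of variation in the 20 columns, grouped by stage, with cultivars as labelled and each point the authors' mean. The lines run nearly flat across stages, with VIT_04s0044g00580 near 1301 FPKM and the other 9 between 20.3 and 99.8 FPKM.

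The ranks after these were filled by genes of moderate level. VIT_11s0016g04420, VIT_05s0077g00470 and VIT_02s0025g00100 had coefficients of variation of 6.79%, 6.93% and 7.16%, at means of 34.5, 35.9 and 86.8 FPKM. VIT_08s0007g07570, VIT_00s0229g00110, VIT_06s0061g00900 and VIT_18s0122g01080 completed the first 10, with means of 52.8, 48.7, 24.7 and 37.2 FPKM. The next 10, from VIT_16s0100g00320 through VIT_01s0026g00310, VIT_13s0047g00460, VIT_14s0030g01350, VIT_09s0002g07070, VIT_04s0023g00800, VIT_00s1373g00010, VIT_13s0158g00140 and VIT_08s0007g01140 to VIT_07s0005g05160, had coefficients between 7.80% and 8.22%. Of these 20 genes, VIT_07s0005g05160 was the most abundant after VIT_04s0044g00580, with stage means of 144 FPKM in pea-sized, 145 in touching, 163 in soft and 163 in harvested berries.

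Over all 100 members the coefficient ran from 4.97% to 10.2% with a median of 9.18%, where eligible genes had a median of 25.0% and reached 134%. The threshold fell in a dense part of the ranking. Just inside it stood VIT_11s0206g00130, VIT_18s0122g00890 and VIT_06s0080g00560 at 10.16%, 10.18% and 10.20%, and just outside it VIT_13s0067g02970, VIT_17s0000g00890 and VIT_11s0065g00320 at 10.23%, 10.25% and 10.25%. The highest column of a member was 1.21 to 1.58 times its lowest (median 1.39), against a median of 2.43 in eligible genes. No member was at 0 in any column.

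Members were mostly of modest abundance. Their mean level ran from 24.0 to 1301 FPKM with a median of 50.6 FPKM, below the median of 70.6 FPKM of eligible genes. By mean level, 49 of 1061 eligible genes of 20 to 50 FPKM were members (4.62%), as were 30 of 1232 of 50 to 100 FPKM (2.44%), 15 of 670 of 100 to 200 FPKM (2.24%) and 6 of 514 of 200 FPKM or more (1.17%). The median coefficient of variation of eligible genes was 19.6%, 25.7%, 30.4% and 35.3% in these classes. The minimum of 20 FPKM in every column bounds the variation of genes of low mean more than that of abundant genes, so these medians partly follow from the filter. After VIT_04s0044g00580 the most abundant members were VIT_17s0000g00580, VIT_17s0053g00620, VIT_18s0001g14860 and VIT_00s0189g00020, with means of 560, 434, 329 and 311 FPKM. The least abundant were VIT_14s0030g01350, VIT_04s0008g00190, VIT_06s0061g00900, VIT_06s0004g07730 and VIT_13s0047g00460, with means between 24.0 and 25.6 FPKM. Their nearness to the minimum of 20 FPKM limits how low they could go and still be eligible.

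**Figure D2:**
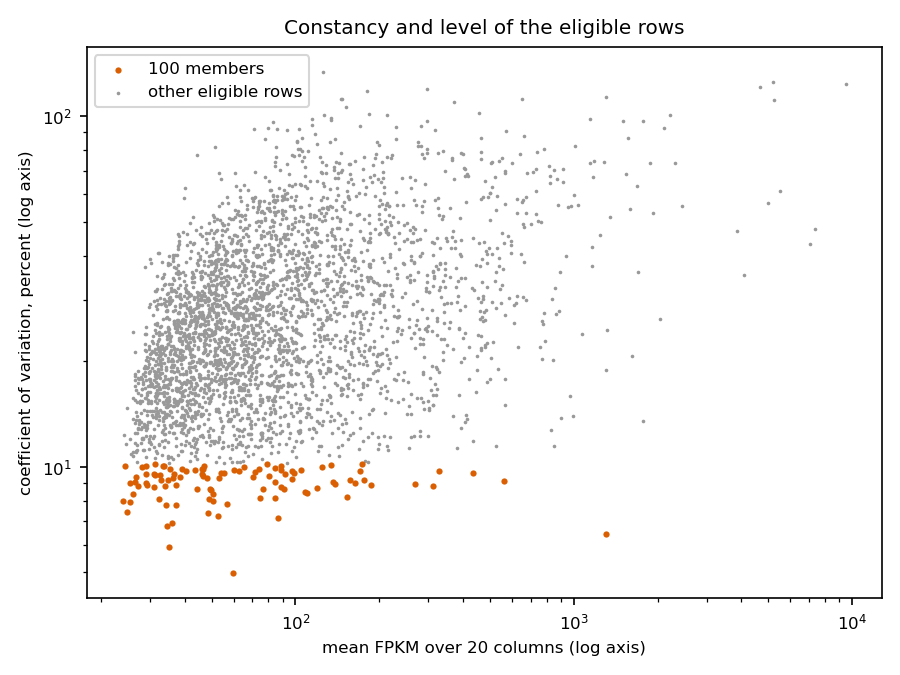
Coefficient of variation (percent, log axis) against mean FPKM over the 20 columns (log axis) for the 3477 eligible genes, with the 100 members in orange. Members line the lower edge, most of them under 200 FPKM, and 6 have a mean of 200 FPKM or more.

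The small variation left in the members was shared between stage, cultivar and the remainder. On the log2(FPKM + 1) scale, stage took a median of 33.6% of a member's variance, cultivar 25.9% and the remainder 34.6%, where eligible genes had medians of 62.6%, 13.7% and 18.7%. Stage held the largest share in 41 members, the remainder in 35 and cultivar in 24, against 76.6%, 12.9% and 10.6% of eligible genes. Without harvested berries the members' medians were 35.3% for stage, 32.9% for cultivar and 27.7% for the remainder. Cultivar then held the largest share in 35 members, against 765 of 3477 eligible genes. The range between the highest and lowest stage mean was 0.026 to 0.31 log2 units (median 0.18), under 1.1-fold in 33 members and under 1.2-fold in 89. Among eligible genes, 2.44% and 10.3% were under these limits, a difference that the choice favours. The range between cultivar means was 0.059 to 0.32 log2 units (median 0.17), under 1.2-fold in 91 members, against 32.2% of eligible genes. Without harvested berries its median was 0.18, with 91 under 1.2-fold too, against 1128 of 3477 eligible genes. The highest stage mean was that of pea-sized berries in 25 members, touching berries in 35, soft berries in 13 and harvested berries in 27, close to the split of 22.0%, 30.3%, 15.6% and 32.2% in eligible genes.

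Even the members with the widest stage range differed by little. VIT_00s0920g00020 had the widest, with 41.9 ± 2.33 FPKM in pea-sized, 47.9 ± 3.20 in touching, 46.2 ± 0.875 in soft and 52.4 ± 4.36 in harvested berries (SD, n = 5 cultivars). At harvest its values were 52.0, 53.2, 59.1, 50.3 and 47.3 FPKM in the cultivar order of the labels, all above the highest pea-sized value of 44.5 FPKM. VIT_08s0056g00040 had 32.7 ± 1.51, 34.5 ± 1.60, 30.5 ± 1.30 and 27.8 ± 1.96 FPKM over the 4 stages, and VIT_04s0008g04890 had 55.7 ± 3.69, 62.2 ± 4.21, 50.9 ± 3.72 and 53.6 ± 1.66 FPKM. VIT_08s0007g03350 was higher in soft berries (185 ± 7.64 FPKM) than in touching berries (153 ± 10.6 FPKM), without overlap. VIT_10s0071g00950 had lower means at each later stage, 81.0, 76.4, 72.1 and 67.0 FPKM, with overlap between neighbouring stages.

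Between cultivars the widest member was VIT_05s0029g01370, which was lowest in Refosco at all 4 stages, with 85.2, 79.1, 79.0 and 62.9 FPKM in pea-sized, touching, soft and harvested berries. Without harvested berries its cultivar means were 92.4 FPKM in Sangiovese, 90.2 in Barbera, 95.4 in Negroamaro, 81.1 in Refosco and 89.9 in Primitivo. VIT_18s0001g14860 was highest in Sangiovese at 376 ± 13.0 FPKM over 4 stages (SD, n = 4), against means of 319 FPKM in Barbera, 305 in Negroamaro, 313 in Refosco and 330 in Primitivo, which reached 379 FPKM in touching berries. Without harvested berries its means were 381, 324, 313, 321 and 334 FPKM in the order of the labels. VIT_14s0068g01280 also had its highest mean in Sangiovese, 152 ± 6.47 FPKM (SD, n = 4 stages), or 149 FPKM without harvested berries, when the other 4 cultivars had 129 to 135 FPKM. VIT_06s0004g00140 was highest in Negroamaro, 45.0 ± 3.77 FPKM over 4 stages, but without harvested berries Negroamaro had 43.2 FPKM and Primitivo 43.4 FPKM. Over all members, Negroamaro held the highest cultivar mean in 40, against 26.8% of eligible genes, and in 28 without harvested berries, against 24.2%. Refosco held the lowest in 34, against 32.5% of eligible genes, and in 33 without harvested berries, against 29.8%.

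The members were then read as a scale for the columns. Each member's FPKM was divided by its own mean over the 20 columns, and the median of the 100 ratios gave a factor for the column. The factors ran from 0.930 in the harvest column labelled Primitivo, where 16 of 100 members were above their own mean, to 1.08 in the harvest column labelled Negroamaro, where 78 were. Stage means of the factor were 0.997 ± 0.015 in pea-sized, 1.01 ± 0.021 in touching, 0.987 ± 0.022 in soft and 1.00 ± 0.059 in harvested berries (SD, n = 5). The members thus placed the 4 stages on nearly one level, which the rule favours, and the harvested columns lay further apart from each other than the stage means did.

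Several other measures of the same columns differed more between stages. The total FPKM of a column, relative to the average column, was 0.890 ± 0.015 in pea-sized, 0.995 ± 0.040 in touching, 1.16 ± 0.055 in soft and 0.974 ± 0.052 in harvested berries. The upper quartile of genes above 0 was 1.07 ± 0.014, 1.12 ± 0.029, 0.944 ± 0.034 and 0.887 ± 0.036 in the same stage order. The median of ratios, the size factor formula used for counts applied here to the 19621 rows above 0 in every column, gave 1.11 ± 0.0049, 1.12 ± 0.029, 0.918 ± 0.036 and 0.876 ± 0.046. The total outside the 10 highest rows of a column changed less, with 0.999 ± 0.011, 1.03 ± 0.032, 1.04 ± 0.061 and 0.937 ± 0.037. The median ratio of all 3477 eligible genes to their own means was 0.951 ± 0.017, 1.02 ± 0.031, 0.967 ± 0.042 and 0.963 ± 0.048. Total FPKM was therefore highest in soft berries, while the upper quartile and the median of ratios were lower in soft and harvested berries than in either green stage. The highest column factor was 1.17 times the lowest for the members, 1.39 times for the total, 1.35 times for the upper quartile, 1.42 times for the median of ratios and 1.26 times for the total outside the 10 highest rows. For the median ratio of all eligible genes it was 1.16 times, about as small as for the members.

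**Figure D3:**
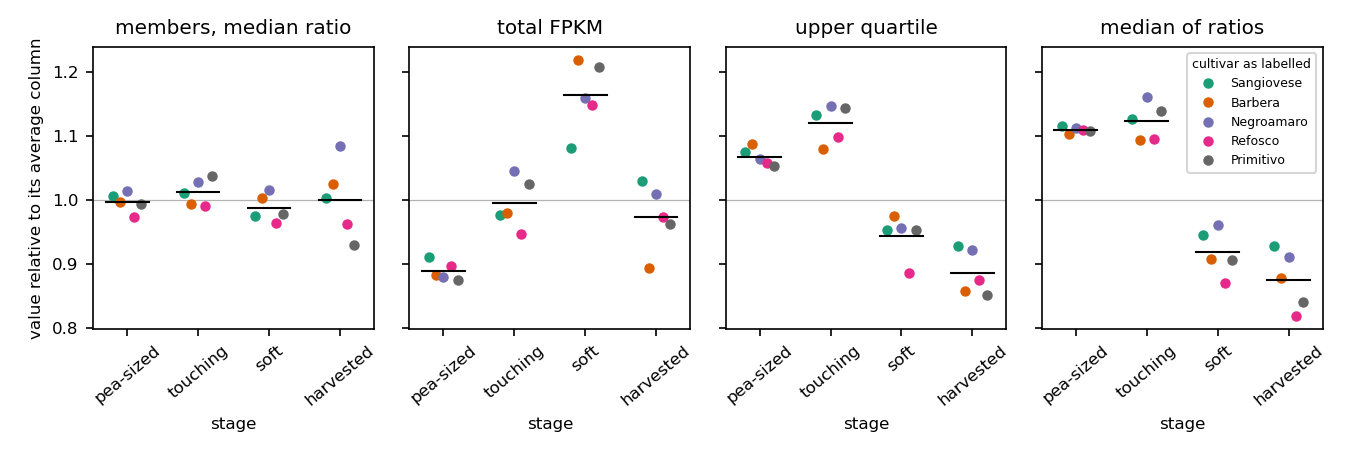
Column measures relative to their average column, by stage, with 1 point per cultivar as labelled and a bar at the mean of 5. The members' factor stays between 0.930 and 1.08, total FPKM is highest in soft berries, and the upper quartile and median of ratios are lower in soft and harvested berries.

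The 10 most abundant rows of a column took 6.16 ± 0.792% of its FPKM in pea-sized, 13.2 ± 2.90% in touching, 25.6 ± 3.12% in soft and 19.6 ± 2.29% in harvested berries. The members' summed FPKM stayed at 9347 ± 195, 9312 ± 277, 9287 ± 377 and 9382 ± 503 over the same stages. As a share of the column total it was 1.17 ± 0.034%, 1.04 ± 0.023%, 0.889 ± 0.047% and 1.07 ± 0.071%. The share of the members was thus lowest in soft berries, where the total FPKM and the share of the 10 most abundant rows were highest. The part of the abundant rows in these differences was not tested.

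The median change of the members at each step was near 0 as deposited, on the log2(FPKM + 1) scale. It was 0.021 for touching minus pea-sized, -0.037 for soft minus touching and 0.015 for harvested minus soft berries, with SDs over 5 cultivars of 0.031, 0.039 and 0.061. The last SD pairs the doubtful harvest columns with soft columns by their labels. The median over the 18207 genes whose mean was 1 FPKM or more was 0.034, -0.26 and -0.080 at these steps. The members thus stood 0.23 log2 units above the median gene at softening, a gap that the choice of flat genes favours. Over all genes tested, the median change for soft minus touching berries was -0.31 in genes of 1 to 5 FPKM, -0.32 at 5 to 20, -0.21 at 20 to 50, -0.15 at 50 to 200 and -0.064 at 200 FPKM or more.

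Rescaling the columns moved the members as a block. With every column set to equal total FPKM, their median was -0.14, -0.25 and 0.27 at the 3 steps, and with equal upper quartiles -0.047, 0.20 and 0.10. With the median of ratios it was 0.0043, 0.25 and 0.083, with quantile normalization -0.0013, 0.16 and 0.060, and with equal totals outside the 10 highest rows -0.026, -0.039 and 0.16. The direction of the members at softening thus depended on the scaling. All genes moved with them: the median gene at softening was at -0.45 with equal totals, -0.055 with equal upper quartiles, -0.019 with the median of ratios, 0.053 with quantile normalization and -0.26 with equal totals outside the 10 highest rows. Relative to the median of all genes tested under the same scaling, members stood 0.19, 0.26, 0.26, 0.11 and 0.22 log2 units higher at softening in the order of the scalings above. The choice of flat genes favours this gap, and how much of it comes from that choice was not tested. A factor common to a column shifts members and all genes nearly alike, so the sign under such scalings is no further evidence. Quantile normalization, at 0.11, is no such factor.

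Each scaling also nominated its own constant genes. Of the 100 members, 60 were among the 100 most constant with equal totals outside the 10 highest rows, 38 with equal totals, 35 with quantile normalization, 24 with equal upper quartiles and 12 with the median of ratios. The 100 genes most constant under the median of ratios had a median of -0.28 at softening when read as deposited, with 1 of 100 above 0, and those under equal upper quartiles had -0.23, with 0 of 100 above 0. The 100 most constant under equal totals had 0.11, with 77 of 100 above 0. Genes chosen as flat under such a scaling carry its column factors when read as deposited, so the choice favours these values. Equal totals and the median of ratios shared 1 gene of 100, whereas equal upper quartiles shared 69 with the median of ratios and 69 with quantile normalization. Which genes counted as most constant thus differed with the scaling of the table.

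VIT_13s0064g01230 was the single member that stayed among the 100 under all 5 scalings. Its coefficient of variation was 9.30% as deposited, 12.8% with equal totals, 7.04% with equal totals outside the 10 highest rows, 8.51% with equal upper quartiles, 10.3% with the median of ratios and 9.01% with quantile normalization. It had 55.0 ± 0.752 FPKM in pea-sized, 56.1 ± 3.20 in touching, 55.5 ± 4.56 in soft and 46.4 ± 2.63 in harvested berries. Its harvested values, 49.7, 46.0, 48.2, 42.9 and 45.4 FPKM in the cultivar order of the labels, overlapped with the 47.8 FPKM of soft Negroamaro berries and were otherwise the lowest. VIT_13s0073g00610 had 4.97% as deposited but 11.1% with equal totals and 12.2% with the median of ratios. VIT_04s0044g00580 had 6.44% as deposited, 14.7% with the median of ratios and 18.0% with quantile normalization. Of the other members, 12 stayed under 4 scalings, 12 under 3, 28 under 2, 24 under 1 and 23 under none.

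**Figure D4:**
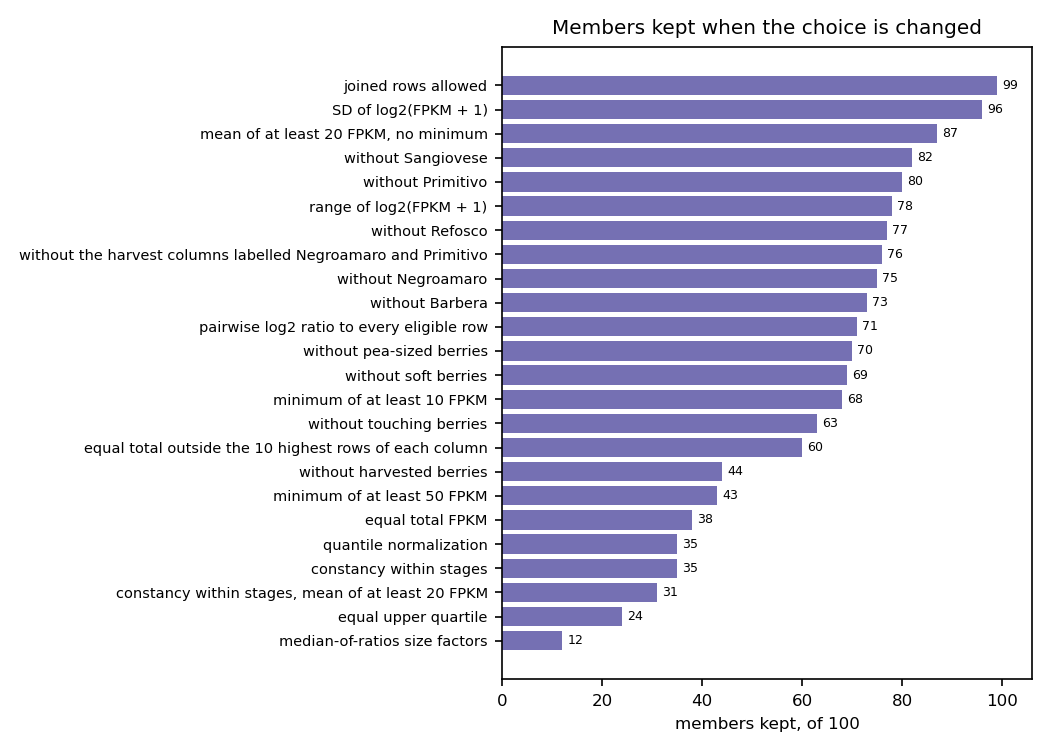
Number of the 100 members that are also among the 100 most constant genes under 24 changed choices. Other measures of constancy over all columns keep 71 to 96 members, constancy within stages keeps 31 or 35, leaving out 1 cultivar keeps 73 to 82, and other scalings keep 12 to 60.

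Genes rechosen by the same rule in 4 cultivars were read in the cultivar left out, which the choice had not used. Without Sangiovese, Barbera, Negroamaro, Refosco and Primitivo in turn, 82, 73, 75, 77 and 80 members were kept. In the cultivar left out, the rechosen genes had median coefficients of variation over 4 stages of 8.21%, 9.84%, 9.64%, 9.10% and 10.1%, and eligible genes had 21.1%, 25.3%, 24.3%, 26.5% and 22.1%. Genes chosen in 4 cultivars were thus also the flatter ones in the fifth, where stages and scaling are shared. VIT_13s0073g00610 was first in 4 of these 5 choices, and VIT_09s0002g02470 was first when Primitivo was left out.

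In the cultivar left out, 2 harvest columns stood furthest from 0. The rechosen genes were at a median of 0.18 log2 units in the harvest column labelled Negroamaro and -0.15 in the one labelled Primitivo, relative to their mean in the cultivars used. The other harvest columns were at -0.091 in Refosco, 0.073 in Barbera and 0.020 in Sangiovese, where the earlier stages of the 5 cultivars lay between -0.083 and 0.068. When these columns labelled Negroamaro and Primitivo were left out of the choice, 76 members were kept. Without them the members' median step from soft to harvested berries was 0.014, where all columns gave 0.015.

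Leaving out a whole stage changed the list more. Rechoosing without pea-sized, touching, soft and harvested berries kept 70, 63, 69 and 44 members. In the stage left out, the rechosen genes were at a median of -0.035, 0.055, -0.047 and 0.065 log2 units relative to the other 3 stages. All genes eligible without that stage were at medians of -0.080, 0.068, -0.025 and -0.13, so the sign differed for harvested berries. The genes chosen without harvested berries had a median coefficient of variation of 6.99% in the columns used and 12.9% over the 5 harvested columns. The same value in the stage left out was 5.88% in pea-sized, 7.11% in touching and 8.74% in soft berries. The members themselves, which used every stage, were at -0.014, 0.030, -0.023 and -0.012, with SDs over 5 cultivars of 0.018, 0.030, 0.032 and 0.082.

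A choice that does not ask stages to be alike was made as well. The 100 eligible genes most constant across cultivars within each stage were taken, of which 35 were members. Their median steps were 0.034, -0.039 and 0.0074 as deposited, close to those of the members, but single genes spread from -1.15 to 0.58 log2 units at softening, and 45 of 100 were above 0. With the median of ratios their medians were 0.017, 0.24 and 0.076, and with equal totals -0.12, -0.26 and 0.26. The minimum of 20 FPKM in every column was replaced by a mean of at least 20 FPKM to see whether it set this result. Then 31 of the 100 were members, and the medians were 0.028, -0.057 and 0.022 as deposited.

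**Figure D5:**
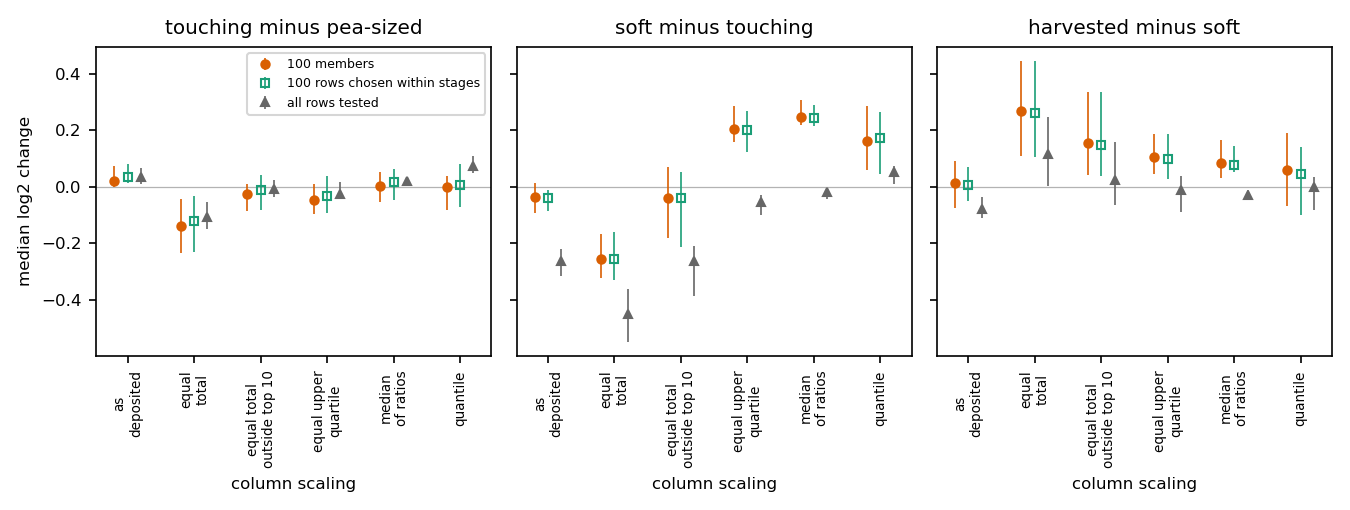
Median log2(FPKM + 1) change at the 3 steps for the 100 members, the 100 genes chosen within stages and the 18207 genes tested, under 6 column scalings, with lines from the lowest to the highest median over the 5 cultivars. As deposited both sets of 100 lie between -0.039 and 0.034 at each step, while other scalings place them between -0.26 and 0.25 at softening. Lines for harvested minus soft berries pair the doubtful harvest columns by their labels.

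A factor common to a whole column cancels in ratios between genes, so constancy was also read from ratios. Quantile normalization is no such factor and can change them. The SD over the 20 columns of the log2 ratio of a member to an eligible gene, averaged over eligible genes, was 0.44 to 0.48 (median 0.45), against a median of 0.56 over eligible genes. Ranked by it, 71 of the 100 members stayed. Between members, the same SD was 0.14 to 0.20 (median 0.17), so members held their ratios to each other more closely than to the remaining genes, which the choice favours. Pearson's r between members over the 20 columns, which share their scaling, had a median of 0.11, and of -0.0063 once columns were set to the members' median.

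Averages over more genes had lower median variation than single genes. Built from the first gene, first 3, first 10 or all 100 of a choice in 4 cultivars, and read in the cultivar left out, a reference level had a coefficient of variation over 4 stages with medians of 4.16%, 4.04%, 2.83% and 2.22% over the 5 cultivars. The highest values were 10.1%, 7.23%, 8.18% and 6.60%, each in a cultivar labelled Negroamaro or Primitivo. Their doubtful harvest columns are part of these values, which were not computed without harvested berries. These values hold for columns scaled as deposited.

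The limma fit across all 18207 genes, with stage and cultivar as terms and Benjamini-Hochberg adjusted p under 0.05, used the same columns as the rule, so its calls on members are given beside the background and support nothing. For touching minus pea-sized berries 10 members were called, 5 higher and 5 lower, against 22.9% of all genes. For soft minus touching berries 19 were called, 7 higher and 12 lower, against 55.4%. For harvested minus soft berries 6 were called, 4 higher and 2 lower, against 39.5%. For soft and harvested minus pea-sized and touching berries 26 were called, 11 higher and 15 lower, against 74.7%. The called changes were between 0.12 and 0.29 log2 units in size, and 71 members were called at none of the 3 steps, 23 at 1 and 6 at 2. This tally over steps was not made for all genes, so it has no background to be read against. With both doubtful harvest columns left out, 14, 21, 8 and 25 members were called in the 4 comparisons. That fit called 26.7%, 59.1%, 36.9% and 75.3% of all genes. Without any one cultivar, and so with fewer columns, 1 to 5, 6 to 11, 1 to 6 and 16 to 18 members were called in these comparisons. Of all genes, 13.2% to 19.8%, 48.1% to 50.8%, 28.6% to 36.8% and 70.5% to 72.9% were called in the same fits. The 2 lowest counts of the first comparison, 1 each, came without Sangiovese and without Barbera, against 15.6% and 13.2% of all genes.

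The calls on members depended on the column scaling. For soft minus touching berries, 64 members were called with equal totals, all lower. Of all 18207 genes, 62.4% were called in either direction and 9804 were called lower. With equal upper quartiles 57 members were called, all higher, against 52.3% of all genes in either direction and 4229 genes higher. With the median of ratios 74 were called, all higher, against 53.0% in either direction and 4611 genes higher. For soft and harvested minus pea-sized and touching berries the counts were 69 lower, 91 higher and 99 higher, against 76.4%, 74.7% and 74.9% of all genes called in either direction. Over all genes called at softening, 25.0% were higher as deposited, 13.7% with equal totals, 44.4% with equal upper quartiles, 47.8% with the median of ratios, 54.2% with quantile normalization and 27.7% when columns were set to the members' median. For harvested minus soft berries the higher share was 37.8% as deposited, 65.8% with equal totals, 54.5% with equal totals outside the 10 highest rows, 49.0% with equal upper quartiles and 36.7% with the members' median.

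Between cultivars the moderated F test called 2 members, against 16.3% of all genes. They were VIT_14s0060g00580, with an adjusted p of 0.039, and VIT_19s0014g03920, with an adjusted p of 0.041, the second named after its values were seen. VIT_14s0060g00580 had its lowest mean in Refosco, 34.1 ± 2.39 FPKM over 4 stages, and its highest in Barbera, 41.8 ± 2.28 FPKM (SD, n = 4), or 35.0 and 41.6 FPKM without harvested berries. VIT_19s0014g03920 had 38.8, 38.1, 32.4 and 33.9 FPKM over the 4 stages in Barbera, against 31.0, 30.4, 28.6 and 31.1 FPKM in Refosco, without overlap. With both doubtful harvest columns left out, 2 members were called as well, against 24.8% of all genes. Without Sangiovese, Barbera, Negroamaro or Refosco 0 were called, against 5.26%, 10.8%, 13.5% and 8.99% of all genes in this order. Without Primitivo 2 were called, against 14.0%.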

How the data were processed

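The authors' deposited table gives FPKM, as means per cultivar and stage. Tools listed in the submitters' processing notes are TopHat2 2.0.6 and Cufflinks 2.0.2. What each did, the build and the annotation were not given in the sources used here. Libraries were non-directional per the labels' protocols, so antisense partners cannot be told apart. FPKM holds no read depth, so no counting interval was computed.

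Members and lists were chosen with earlier results of these data known. Rows joining several tags were left out. The 18207 rows whose mean was 1 FPKM or more were tested on the log2(FPKM + 1) scale with R 4.3.3 and limma 3.58.1: stage and cultivar as terms, a mean-variance trend, 12 residual degrees of freedom, two-sided. Columns are means, so the cultivar is the unit of replication for stages, and stages for cultivars. A cultivar is one set of vines in one season. The choice procedure was run on simulated data with planted rows set far more constant than the others. That checks that the procedure works as written, not how reliable the list of members is.

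The genes named are the 20 members of lowest coefficient of variation, the 5 of highest and lowest mean, the 5 of widest stage and cultivar range, the 3 either side of the threshold, and members kept under every scaling. Parts of the rule and the functional lists that need gene names, such as the classical reference families, could not be applied (0 tags matched). Column scalings were equal total, equal total outside the 10 highest rows, equal upper quartile of rows above 0, median of ratios, quantile and the members' median; eligibility was set anew under each. Other alternatives were minimums of 10 and 50 FPKM, no filter on the mean or a filter at 5 FPKM, a pseudocount of 0.1 or 5, no cultivar term, and each cultivar or stage left out. The choice within stages by mean level, step changes and stage tests without the 2 doubtful harvest columns, stage tests with equal totals outside the 10 highest rows, and cultivar tests with either equal total were chosen after seeing the data. Python 3.11.15, numpy 2.4.6, pandas 2.3.3 and matplotlib 3.10.9 were used.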

Additional observations from a re-analysis of the deposited data

Results flagged for a closer look

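For the 42 named genes and 2 column measures, each stage was searched for a cultivar far from the other 4. Of 176 groups of 5 columns, 10 had one whose gap to the nearest other value was above 0.71 of the group's range. Chance gives about 1 in 20 for genes not chosen on their values. These genes were named on the same values, so that rate does not apply to them. VIT_18s0001g14860 and VIT_14s0068g01280, below, were named for their wide range between cultivars. In pea-sized berries, Sangiovese stood apart in 3 genes. It had 375 FPKM of VIT_18s0001g14860 (others 318 to 328), 155 FPKM of VIT_14s0068g01280 (others 117 to 127) and 151 FPKM of VIT_08s0007g03350 (others 165 to 170). Also in pea-sized berries, Negroamaro was highest for VIT_17s0000g00580 with 569 FPKM (others 527 to 539), and Refosco lowest for VIT_11s0016g04420 with 32.5 FPKM (others 34.3 to 34.8).

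In touching berries Barbera was lowest for VIT_06s0061g00900 with 23.3 FPKM (others 25.8 to 26.1) and for VIT_13s0047g00460 with 22.2 FPKM (others 26.5 to 28.1). In soft berries Negroamaro was highest for VIT_05s0077g00470 with 35.8 FPKM (others 35.0 to 35.2), Primitivo for VIT_16s0100g00320 with 35.9 FPKM (others 33.0 to 33.4) and Refosco for VIT_08s0056g00040 with 32.7 FPKM (others 29.5 to 30.4). No group of harvested columns was flagged in this way.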

How the results depend on the processing

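No paired analysis was possible because the deposited columns are means without replicate numbers; this concerns replicates alone, since stages share cultivars and cultivar is a term of the fit. Of 258 recomputed values, 184 stayed within the spread or within 1.5 times the count, with direction not checked, and 74 moved. The cause of these moves was not tested unless the alternative itself shows it. The number of members kept was 38 with equal totals, 60 with equal totals outside the 10 highest rows, 24 with equal upper quartiles, 12 with the median of ratios, 35 with quantile normalization, 43 with a minimum of 50 FPKM, 63 without touching and 44 without harvested berries, and 73 to 82 without 1 cultivar. Median steps of the members with equal totals were -0.14 (touching minus pea-sized), -0.25 (soft minus touching), 0.27 (harvested minus soft) and -0.19 (both late minus both early stages; -0.021 as deposited). With equal upper quartiles they were -0.047, 0.20, 0.10 and 0.23, with the median of ratios 0.25, 0.083 and 0.29 at the last 3, with quantile normalization 0.16 at softening and 0.19 late against early, and with equal totals outside the 10 highest rows -0.026 and 0.16 at the first and the third step. Without 1 cultivar they ran from 0.0074 to 0.032, -0.048 to -0.021, -0.0011 to 0.042 and -0.035 to 0.0096. Pea-sized berries were at -0.035 against the other stages by genes rechosen without them.

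Members called in these 4 comparisons (10, 19, 6 and 26 as deposited) numbered 24, 64, 72 and 69 with equal totals, against 22.9%, 62.4%, 43.2% and 76.4% of all genes. In the last 3 they numbered 57, 16 and 91 with equal upper quartiles (52.3%, 40.5% and 74.7% of all genes), 74, 16 and 99 with the median of ratios (53.0%, 40.8% and 74.9%) and 48, 12 and 70 with quantile normalization (53.7%, 39.2% and 75.6%). With equal totals outside the 10 highest rows they numbered 12 and 26 at softening and after it (54.3% and 40.3%). For touching minus pea-sized berries they numbered 17 with no filter, where more rows are tested and 5290 of 26459 were called. With no cultivar term they numbered 5, against 16.1% of all genes. Without 1 cultivar they numbered 1 to 5, 6 to 11, 1 to 6 and 16 to 18, with fewer columns, and rows called numbered 2407 to 3595, 8747 to 9249, 5193 to 6720 and 12804 to 13296. Between cultivars, members called (2) numbered 0 with either equal total, 1 with equal upper quartiles, median of ratios, quantile normalization or the members' median, 8 with no filter and 0 to 2 without 1 cultivar, against 13.0% to 16.7% of all genes under these scalings and with no filter. Rows called between cultivars (2973) numbered 4522 without the 2 doubtful harvest columns and 958 to 2563 without 1 cultivar.

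The replicate spread, the depth and the functions of the members are not known here. The columns come from 5 cultivars in one vineyard and season. Constancy here holds for FPKM as deposited, not for the share of a column's total, and total RNA per berry or cell was not measured.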
